A study of Mus musculus and Homo sapiens with 41 samples.

Results

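The suppressor of cytokine signalling (SOCS) family was followed through 39 H2AK119ub CUT&Tag libraries. Its members were taken by name as Cish, Socs1, Socs2, Socs3, Socs4, Socs5, Socs6 and Socs7, which are 8 of the 21938 protein-coding mouse genes, and as the 8 human genes of the same names among 20033 in K-562 cells. Socs3 was included because the study names it among the genes it followed in haematopoietic cells. For every member, the length of genome lying under listed H2AK119ub peaks was summed within 5 kb to each side of the GENCODE transcription start site (TSS), and separately over the gene body from first to last annotated base. A value of 0 means that no peak was listed there, not that the mark was absent.

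The study asked how loss of Tet2, an oxidase of 5-methylcytosine, changes H2AK119ub, and whether lowering Mbd6, a methyl-CpG binding domain protein, or Nsun2, an RNA m5C methyltransferase, changes it back. Every group held 3 libraries. In mouse embryonic stem cells (mESCs), Tet2 KO and WT lines were profiled untransfected, and again after small interfering RNA (siRNA) transfer as Tet2 KO with siMbd6, Tet2 KO with siNsun2, Tet2 KO with the control siNC and WT with siNC. All mESCs grew with leukaemia inhibitory factor (LIF) and with the inhibitors CHIR99021 and PD0325901, and feeder cells were cleared by passages on gelatin. Haematopoietic stem and progenitor cells (HSPCs) were Lin- c-Kit+ marrow cells of mice aged 6 to 8 weeks, kept for 7 days with cytokines that included SCF, IL-3 and GM-CSF. They were Tet2 KO (from Tet2-/- mice) with shMbd6, Tet2 KO with shNC and WT (C57BL/6) with shNC, the short hairpin RNAs being delivered by electroporation. K-562, a human erythroleukaemia line, was used as TET2 KO with siMBD6, siNSUN2 or siNC and as WT with siNC. The mESC and K-562 knockouts were lines given by other laboratories, so a line difference and the loss of Tet2 cannot be told apart in them, and nothing in the labels ties replicates to separate animals or cultures. The p-values therefore measure only the spread between these libraries.

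The libraries differed widely in what they listed. The 39 libraries held 1398 to 37392 nuclear peaks covering 0.648 to 17.0 Mb. The 9 Tet2 KO mESC libraries given an siRNA had covered bases in 8.30% to 22.4% of all protein-coding TSS windows, against 47.7% to 58.6% in the WT siNC mESC libraries and the untransfected libraries of both genotypes. In HSPCs this share was 23.3% to 24.7% with shMbd6, 2.42% to 2.72% in Tet2 KO with shNC and 12.2% to 14.5% in WT with shNC. The read depth behind a peak list is not given in these files, and its part in the member values was not tested. Replicate 1 had the smallest covered length of its group in all 6 mESC groups. In these bulk libraries, fewer cells with the mark and less mark per cell cannot be told apart. Peak lengths do not report RNA, so cell identity and the knockdowns could not be checked by expression. At the TSS windows of the pluripotency genes Pou5f1, Nanog, Sox2, Klf4 and Esrrb, 4 of 5 had covered bases in untransfected WT mESCs and 1 of 5 in WT HSPCs. Of the haematopoietic genes Kit, Ptprc, Spi1, Cd34 and Runx1, 3 of 5 had them in untransfected WT mESCs and 1 of 5 in WT HSPCs. Both lists were covered more often in the mESCs, whose libraries covered more windows, so these counts do not check identity.

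As background, cytokines bind receptor chains that carry JAK kinases, and the JAKs phosphorylate STAT factors, which enter the nucleus and switch on target genes. Several SOCS genes are among those targets, and their proteins act back on the receptor, so the family forms a negative feedback loop. Each SOCS protein has an SH2 domain that finds phosphotyrosine and a SOCS box that recruits elongins B and C and a cullin ligase for ubiquitination. LIF, which holds mESCs in the naive state through STAT3, and the cytokines IL-3 and GM-CSF used for the HSPCs signal through this pathway. H2AK119ub is the mark placed by Polycomb repressive complex 1 and removed by the BAP1 deubiquitinase complex.

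The peaks of a given member fell at nearly the same place from library to library, so the stretches shared by the most libraries are shown as the sequence under the mark. They were read from GRCm38.p6, the NCBI name of the mm10 build used for the mouse files, and are written 5′ to 3′ along the gene's own strand. On mm10, Cish (ENSMUSG00000032578.7) spans chr9:107296026-107302784 on the plus strand, Socs2 (ENSMUSG00000020027.18) chr10:95385362-95417180 on the minus strand, Socs3 (ENSMUSG00000053113.3) chr11:117966079-117970047 on the minus strand and Socs5 (ENSMUSG00000037104.9) chr17:87107679-87137839 on the plus strand. In the first pair and in the Socs3 promoter, capitals mark TTCNNNGAA, the palindromic core that STAT dimers bind, which reads the same on both strands and can also hold BCL6 sites. In the others, capitals mark CpG dinucleotides. The Cish stretch at chr9:107296596-107296784 lay under the peaks of 15 of 27 mouse libraries and was wholly exonic and non-coding in GENCODE. It held 3 matches to TTCNNNGAA, a number reached by 0.018% of the stretches at the same distance from other protein-coding TSSs, of which 5.32% held at least 1. The Socs3 stretch at chr11:117969138-117969267 was shared by 12 libraries, was 37.7% exonic and otherwise intronic, and held 1 match, as did 3.67% of stretches at that distance. It also held 16 CpGs, a number reached by 2.4% of those stretches. Distances were taken from GENCODE starts, and the RefSeq starts of Cish and Socs3 lie 633 and 681 bases downstream of these. The shares may therefore not compare like places.
Cish stretch: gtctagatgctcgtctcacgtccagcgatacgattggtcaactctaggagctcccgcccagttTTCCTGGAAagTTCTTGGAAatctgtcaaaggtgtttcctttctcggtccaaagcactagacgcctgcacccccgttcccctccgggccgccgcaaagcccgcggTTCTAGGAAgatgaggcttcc
Socs3 stretch: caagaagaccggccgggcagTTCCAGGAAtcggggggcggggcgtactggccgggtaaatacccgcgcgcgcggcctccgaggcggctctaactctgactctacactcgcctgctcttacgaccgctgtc
Socs2 stretch: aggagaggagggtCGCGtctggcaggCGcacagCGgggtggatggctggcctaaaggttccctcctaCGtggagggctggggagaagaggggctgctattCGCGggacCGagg
Socs5 stretch: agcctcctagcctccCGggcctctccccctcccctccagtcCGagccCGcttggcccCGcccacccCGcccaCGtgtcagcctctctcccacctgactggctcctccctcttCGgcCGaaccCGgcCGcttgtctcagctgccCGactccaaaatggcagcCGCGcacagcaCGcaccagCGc
Socs3 promoter: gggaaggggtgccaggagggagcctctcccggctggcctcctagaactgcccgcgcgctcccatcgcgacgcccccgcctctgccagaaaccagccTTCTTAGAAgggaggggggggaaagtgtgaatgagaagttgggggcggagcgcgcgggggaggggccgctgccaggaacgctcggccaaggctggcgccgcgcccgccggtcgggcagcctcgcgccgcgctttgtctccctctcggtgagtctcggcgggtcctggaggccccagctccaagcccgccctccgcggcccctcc
Socs5 coding stretch: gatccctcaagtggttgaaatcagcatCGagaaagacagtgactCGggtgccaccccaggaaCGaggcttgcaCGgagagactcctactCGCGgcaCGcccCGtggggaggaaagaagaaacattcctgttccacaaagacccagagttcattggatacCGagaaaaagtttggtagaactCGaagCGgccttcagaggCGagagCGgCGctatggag
The Socs2 stretch, chr10:95417170-95417282, spanned the TSS in 19 libraries and held 8 CpGs, a number reached by 37.4% of other genes at that place. The Socs5 stretch, chr17:87107166-87107348, lay upstream of the first exon in 15 libraries and held 15 CpGs, a number reached by 5.00%. Neither of them held TTCNNNGAA. The RefSeq promoter of Socs3, chr11:117969317-117969616 on the minus strand, held 1 TTCNNNGAA, and the peak of only 1 library reached over that site, which starts at position -154 from the RefSeq start. RefSeq promoters of 300 bases were matched for 4 of the 8 mouse members (Cish, Socs1, Socs3 and Socs4). Those of Socs1 and Socs4 held no match to TTCNNNGAA, against 8.30% of 32851 promoters that held at least 1. The last sequence, chr17:87133888-87134105, is coding exon of Socs5 and was under a peak in the 3 untransfected Tet2 KO mESC libraries and in no other library.

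**Figure D1:**
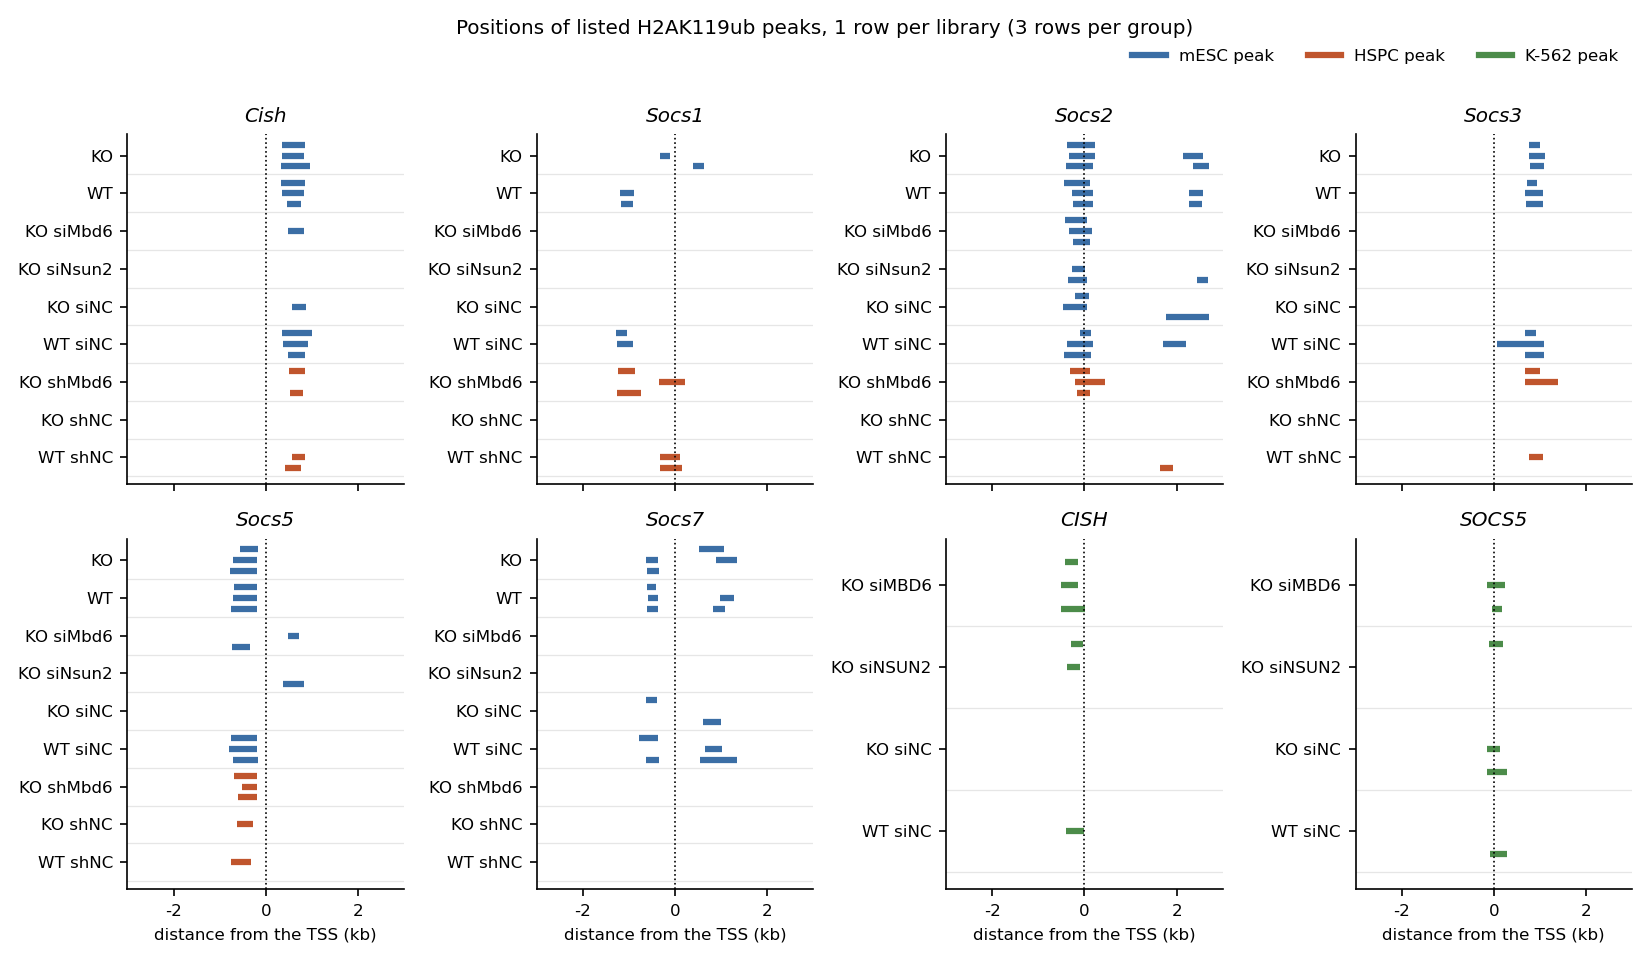
Positions of listed H2AK119ub peaks around the TSS (dotted line, 0 kb) of 6 mouse and 2 human SOCS genes, drawn along the gene's strand with 1 row per library and 3 rows per group. Blue bars are mESC, orange HSPC and green K-562 peaks, and mouse Cish bars sit downstream of the start in every library that has one, while mouse Socs5 bars sit upstream except in 2 libraries.

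The mouse windows held 100 listed peaks, 212 to 1007 bases wide with a median of 397 bases, and 93 of them were centred within 2 kb of the TSS. Their deposited fold enrichment over the local background was 2.85 to 6.38. Of the 100 peaks, 22 lay over the start itself. For Cish, the STAT5-inducible member, all 15 peaks were centred 588 to 721 bases downstream of the outermost GENCODE start, around the RefSeq start at 633 bases. For Socs3, which restrains gp130 and G-CSF receptor signalling, 12 of 13 peaks lay downstream of the outermost GENCODE start. These 12 were centred 577 to 1034 bases from it, where the RefSeq start is at 681 bases. The other peak overlapped the far end of the window. For Socs2, which restrains growth hormone receptor signalling, 19 of 27 peaks lay over the start and the rest were centred from 1776 to 2556 bases downstream.

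For Socs1, the inhibitor of interferon and common gamma chain cytokine signalling, the place of the peak varied between libraries. Its peak in untransfected Tet2 KO mESCs was centred at position -214 from the start in replicate 2 and at 512 in replicate 3, against -1046 and -1034 in WT mESC replicates 2 and 3. In HSPCs, Tet2 KO libraries with shMbd6 had it at -1046, -63 and -1002, and the WT shNC libraries that listed one had it over the start, at -106 and -86. Tnp2, a spermatid protein gene, starts at position -3124 from Socs1 and so shares its window. For Socs7 the peaks fell at 2 places, centred at -570 to -473 and at 790 to 1126 from the start, and peaks at both were listed in 4 libraries. In K-562 cells the 15 peaks were 230 to 523 bases wide, and 10 of them lay over the start.

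Across the mouse libraries Socs2 was covered most often, in 21 of 27, followed by Socs5 in 17, Cish in 15, Socs3 in 12, and Socs1 and Socs7 in 11 each. Socs4 was covered in 2 libraries and Socs6 in none. Wdhd1, a replication factor gene, starts at position -74 from Socs4 on the other strand, so Socs4 values cannot be told apart from those of Wdhd1. Within covered libraries the median length was 0.553 kb at Socs2, 0.501 kb at Socs5, 0.408 kb at Socs7, 0.385 kb at Cish, 0.355 kb at Socs3 and 0.348 kb at Socs1, and the ranges of these 6 overlapped.

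**Figure D2:**
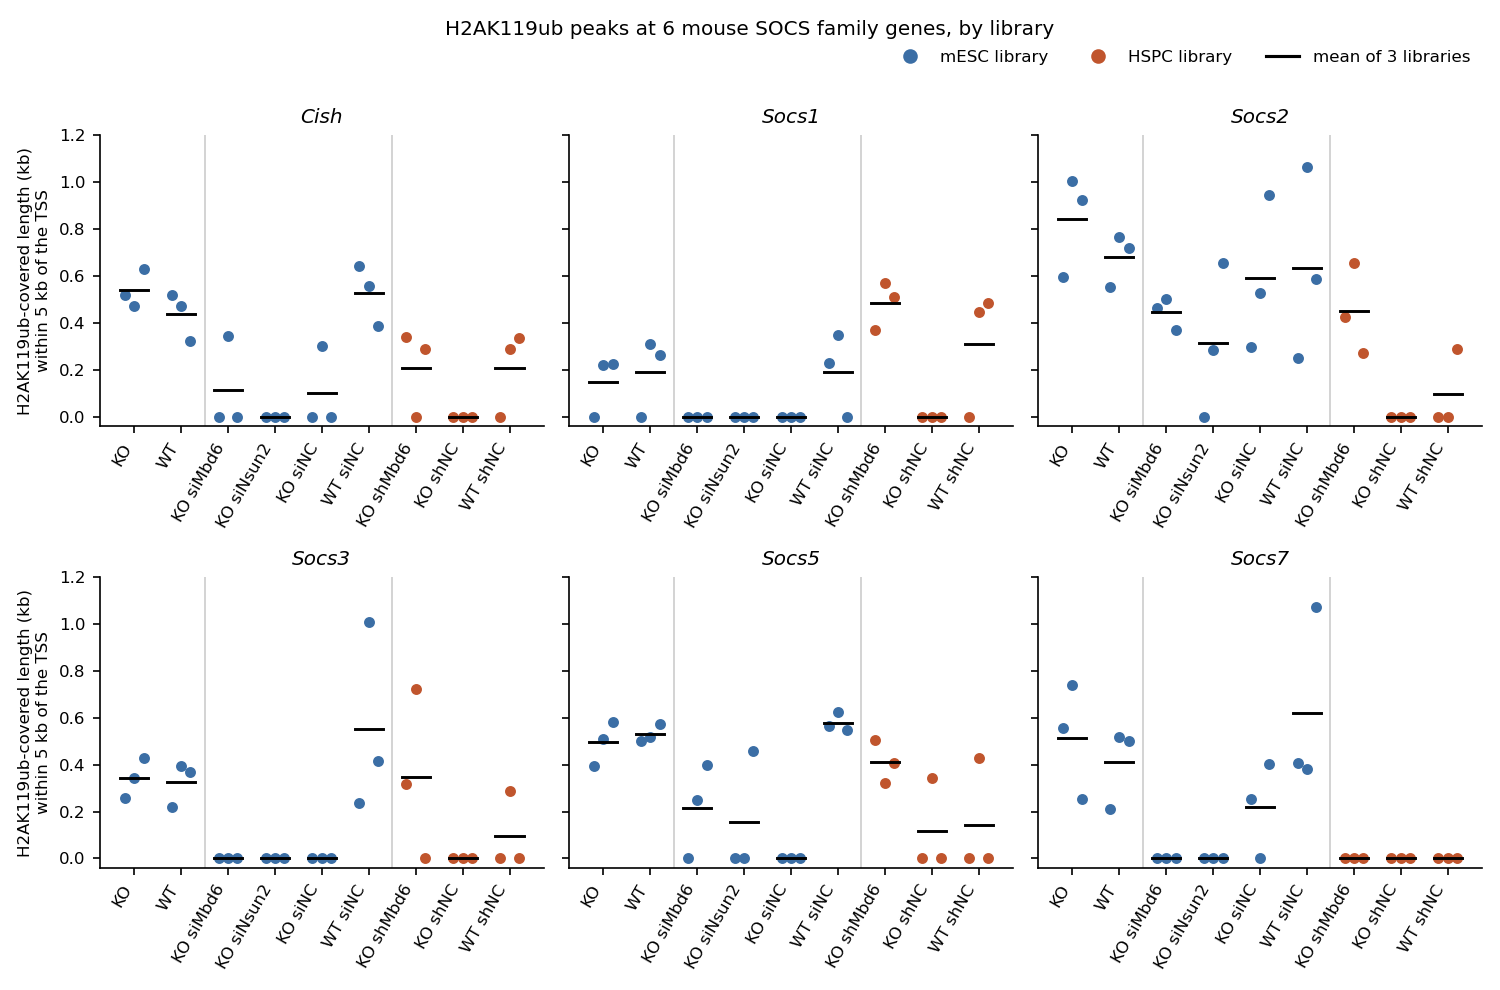
Covered length in kb within 5 kb of the TSS (y axis) of 6 mouse SOCS genes in each library (points) with the mean of 3 libraries (bars), by group along the x axis, with mESCs in blue and HSPCs in orange. Tet2 KO siNC points of Socs3 and Socs5 are all at 0, against 0.238 to 1.007 kb and 0.549 to 0.623 kb in WT siNC, while the untransfected Tet2 KO points overlap the WT points.

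In untransfected mESCs the SOCS windows of Tet2 KO and WT libraries overlapped at every member. Cish had 0.518, 0.473 and 0.629 kb in Tet2 KO libraries, against 0.518, 0.471 and 0.322 kb in WT libraries. Socs2 had 0.596, 1.005 and 0.926 kb in Tet2 KO, against 0.553, 0.767 and 0.718 kb in WT. Socs3 had 0.257, 0.342 and 0.427 kb in Tet2 KO, against 0.220, 0.393 and 0.368 kb in WT. These 3 STAT-responsive genes thus carried peaks in all 6 libraries, at lengths that did not separate the genotypes. Among the members linked to growth factor receptors, Socs5, an inhibitor of EGF receptor and IL-4 signalling, had 0.394, 0.508 and 0.584 kb in Tet2 KO, against 0.501, 0.518 and 0.572 kb in WT. Socs7, which binds insulin receptor substrates and the adaptor NCK, had 0.555, 0.738 and 0.253 kb in Tet2 KO, against 0.212, 0.516 and 0.503 kb in WT. Socs1 had 0, 0.222 and 0.224 kb in Tet2 KO, against 0, 0.311 and 0.264 kb in WT, with replicate 1 at 0 in both.

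Of the 8 members, 6 passed the filter of a covered value in at least 3 libraries, and 0 of them passed an adjusted p of 0.05 in limma's test fitted over 12836 windows, where 0.0234% did (710 at an unadjusted p under 0.05, none a member). The fitted differences were between -0.043 kb at Socs1 and 0.163 kb at Socs2. For Socs3 the difference was 0.015 kb with a 95% interval of -0.186 to 0.216 kb. The widest interval was that of Socs7, -0.265 to 0.475 kb around a difference of 0.105 kb.

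In siNC-treated mESCs the listed mark was shorter or missing at several members in Tet2 KO. Socs3 was at 0 in all 3 Tet2 KO siNC libraries, against 0.238, 1.007 and 0.415 kb in WT siNC libraries. Socs5 was at 0 in all 3 Tet2 KO siNC libraries too, against 0.563, 0.623 and 0.549 kb in WT siNC. Cish had 0, 0.303 and 0 kb in Tet2 KO siNC, against 0.643, 0.557 and 0.385 kb in WT siNC. At these 3 genes no Tet2 KO siNC library reached the lowest WT siNC library, as was the case at 73.9% of all tested windows. Socs2 had peaks in every library of both groups, at 0.297, 0.528 and 0.946 kb in Tet2 KO siNC, against 0.252, 1.067 and 0.589 kb in WT siNC. Socs7 had 0.253, 0 and 0.401 kb in Tet2 KO siNC, against 0.408, 0.380 and 1.071 kb in WT siNC, the highest Tet2 KO value lying between the lower WT values. Socs1 was at 0 in all 3 Tet2 KO siNC libraries, against 0.227, 0.348 and 0 kb in WT siNC, and was covered in too few libraries to be tested.

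By limma's test, 3 of the 5 members that passed the filter were lower in Tet2 KO siNC than in WT siNC, and 72.1% of 10772 windows passed the same test. The 3 were Cish, Socs3 and Socs5. Socs3 was covered in the 3 WT siNC libraries alone and so had to differ once it passed the filter, and its difference of -0.553 kb is given as a description. Cish and Socs7 also passed the filter only with their WT siNC libraries, so their differences and p-values are given as a description. Socs5 and Socs2 would have passed the filter without their WT siNC libraries. Cish fell by 0.427 kb (SE 0.114, adjusted p = 0.00753) and Socs5 fell by 0.578 kb (SE 0.129, adjusted p = 0.00287), with limma and Benjamini-Hochberg adjustment. The Socs7 difference of -0.402 kb had an adjusted p of 0.0543 and the Socs2 difference of -0.0457 kb one of 0.861. The median difference over all tested windows was -0.418 kb. After scaling every library to the same covered length, Cish and Socs5 were no longer past the threshold (adjusted p = 0.679 and 0.307), and Socs2 and Socs7 turned to higher values in Tet2 KO (0.804 kb, adjusted p = 0.0484, and 0.217 kb, adjusted p = 0.421). The direction and call of Socs2 thus changed with scaling. With peaks of a −log10 q of at least 5, Socs2 was covered in WT siNC libraries alone. It passed the filter only through them, so its difference of -0.472 kb there is given as a description. At the original scale, Socs7 passed when Tet2 KO siNC replicate 3, WT siNC replicate 1 or WT siNC replicate 2 was left out (adjusted p = 0.0409, 0.0286 and 0.0328). Socs7 passed the filter only with its WT siNC libraries in these fits too, so these passes are no support for a change. The windows of the fibroblast genes Col1a1, Col1a2 and Thy1 moved with these groups too, with 0 of 3 covered in any Tet2 KO siNC library against 3 of 3 in WT siNC (summed 0 against 0.285 to 1.33 kb), and feeder cells as a part of the SOCS differences were not tested.

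**Figure D3:**
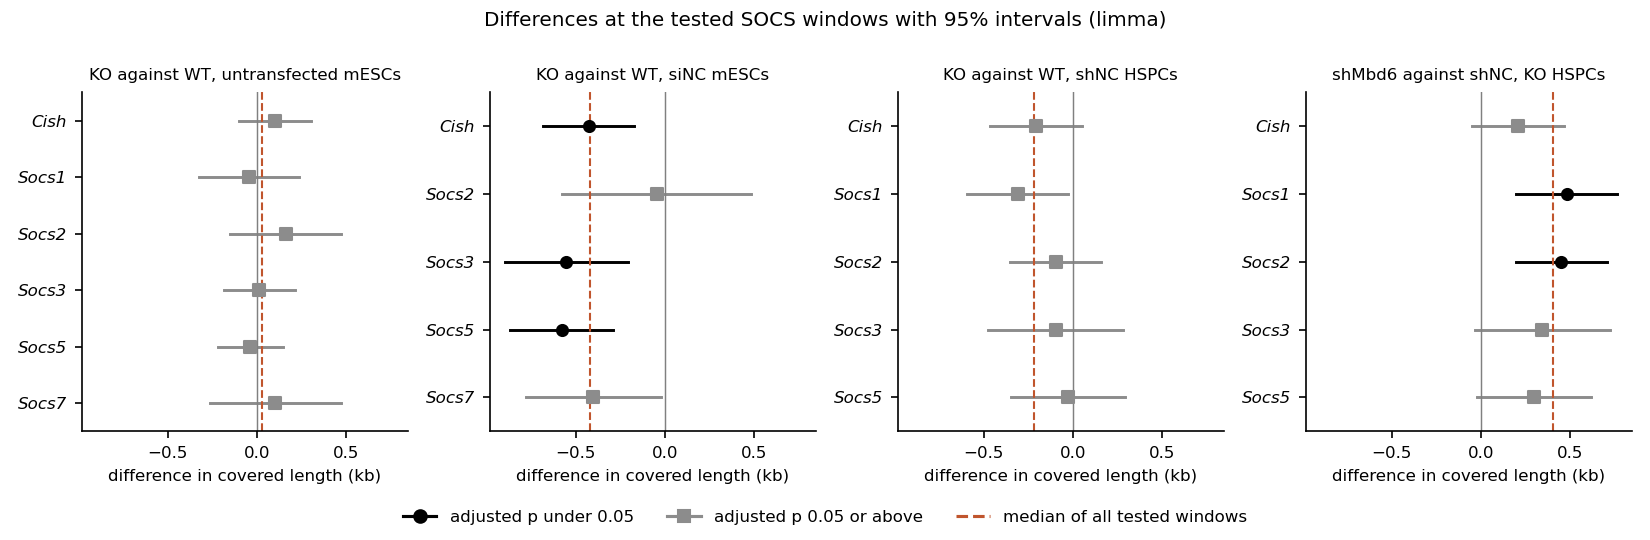
Fitted difference in covered length (kb, x axis, group named first minus group named second) at the SOCS windows tested in 4 comparisons, with 95% intervals from limma. Black circles have an adjusted p under 0.05, grey squares do not, and the dashed line is the median of all tested windows, -0.418 kb in siNC mESCs and 0.404 kb for shMbd6 in HSPCs. Socs3 in siNC mESCs entered through its WT siNC libraries alone. Cish and Socs7 in siNC mESCs, and all members tested with shMbd6, passed the filter only with the group where they were higher.

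The difference between the genotypes was itself set against the other mESC experiment. The Tet2 KO minus WT difference was lower with siNC than without transfection, by a difference of -0.530 kb at Cish (SE 0.146, adjusted p = 0.0169) and of -0.543 kb at Socs5 (SE 0.0893, adjusted p = 0.00193) in limma's test of the difference of differences. The same quantity was -0.568 kb at Socs3 (adjusted p = 0.0660), -0.507 kb at Socs7 (adjusted p = 0.160), -0.209 kb at Socs2 (adjusted p = 0.580) and -0.149 kb at Socs1 (adjusted p = 0.450). Of 13779 windows, 39.4% passed this test, against 2 of the 6 members that could be tested. After scaling to the same covered length, Socs5 passed at -0.408 kb (adjusted p = 0.0435) and Cish did not (adjusted p = 0.673), while Socs2 passed in the other direction at 1.43 kb (adjusted p = 0.0265). The 2 experiments carry separate WT libraries, and transfection and the experiment itself cannot be told apart between them.

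Lowering Mbd6 or Nsun2 in Tet2 KO mESCs did not move any SOCS window past the threshold. Socs2 had 0.463, 0.504 and 0.368 kb with siMbd6 and 0, 0.283 and 0.656 kb with siNsun2, against 0.297, 0.528 and 0.946 kb with siNC. Socs5 had 0, 0.248 and 0.4 kb with siMbd6 and 0, 0 and 0.460 kb with siNsun2, against 0 in all 3 siNC libraries. Cish had 0, 0.344 and 0 kb with siMbd6 and 0 in all siNsun2 libraries, against 0, 0.303 and 0 kb with siNC. Socs3 was at 0 in all 9 of these Tet2 KO libraries, and Socs7 was covered with siNC alone. In limma's test 0 of 5 tested members passed in either comparison, with 0.176% of windows passing for siMbd6 (460 windows at an unadjusted p under 0.05) and 0.0186% for siNsun2 (267 windows), and no member had an unadjusted p under 0.05. The largest fitted differences for siMbd6 against siNC were -0.218 kb at Socs7 and 0.216 kb at Socs5, with 95% intervals of -0.596 to 0.160 kb and -0.0742 to 0.506 kb. The siMbd6 peak of Socs5 lay downstream of the start in replicate 2 and upstream in replicate 3. For siNsun2 the largest was -0.277 kb at Socs2, with an interval of -0.810 to 0.256 kb.

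In HSPCs, where Socs3 and Cish limit the cytokine response of progenitors, the family had almost no listed peak in Tet2 KO. With shNC, 1 value above 0 was listed in the Tet2 KO libraries, 0.345 kb at Socs5 in replicate 2. In WT shNC libraries, Cish had 0, 0.287 and 0.334 kb, Socs1 had 0, 0.445 and 0.484 kb, and Socs5 had 0, 0.430 and 0 kb. Socs3 had 0, 0.289 and 0 kb and Socs2 had 0, 0 and 0.288 kb in the same WT libraries. WT replicate 1 was thus at 0 at all 8 members, although 12.2% of all windows had covered bases in it. By limma's test 0 of the 5 tested members differed between Tet2 KO and WT, against 22.8% of 4250 windows, of which 99.9% were lower in Tet2 KO (79.7% after scaling to the same covered length). The differences were between -0.310 kb at Socs1 (adjusted p = 0.116, unadjusted p = 0.0357) and -0.0283 kb at Socs5 (adjusted p = 0.951), and that of Socs3 was -0.0963 kb (adjusted p = 0.666). Without WT replicate 1, Socs1 was lower in Tet2 KO by 0.465 kb (adjusted p = 0.00295). The library left out was the only WT library that overlapped Tet2 KO at Socs1, so this pass is no support for a change.

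With shMbd6 in Tet2 KO HSPCs 6 of the 8 members were covered in at least 2 of 3 libraries. Socs1 had 0.370, 0.569 and 0.510 kb in Tet2 KO shMbd6 libraries, against 0 in all 3 Tet2 KO shNC libraries. Socs2 had 0.425, 0.657 and 0.273 kb in Tet2 KO shMbd6, against 0 in all 3 shNC libraries. Socs3 had 0.316, 0.724 and 0 kb in Tet2 KO shMbd6, against 0 in all shNC libraries, so replicate 3 with shMbd6 did not differ from the shNC libraries. Socs5 had 0.507, 0.323 and 0.407 kb in Tet2 KO shMbd6, against 0, 0.345 and 0 kb in shNC, and Cish had 0.338, 0 and 0.287 kb, against 0 in all 3. Socs4, which like Socs5 limits EGF receptor signalling, had 0.258, 0.276 and 0 kb, against 0 in all 3. Socs6, which acts on the receptor KIT in other systems, and Socs7 were at 0 in both groups. The groups did not overlap at Socs1 and Socs2, as was so at 73% of all tested windows.

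By limma's test 2 of 5 tested members were higher with shMbd6, against 72.1% of 4250 windows, of which 99.9% were higher (85.3% after scaling to the same covered length). All 5 passed the filter only with their shMbd6 libraries, so their count is no support for a change. Socs1 rose by 0.483 kb (SE 0.124, adjusted p = 0.00838) and Socs2 by 0.452 kb (SE 0.112, adjusted p = 0.00735). The differences at Socs3 (0.347 kb, adjusted p = 0.0867), Socs5 (0.297 kb, adjusted p = 0.0827) and Cish (0.208 kb, adjusted p = 0.114) did not pass. The median difference over all tested windows was 0.404 kb. After scaling to the same covered length, neither Socs1 nor Socs2 passed (adjusted p = 0.129 and 0.0787), and with only peaks shared by another replicate Socs1 did not (adjusted p = 0.108). In fits that left out 1 library, Cish passed without shMbd6 replicate 2 (adjusted p = 0.0287), Socs3 without shMbd6 replicate 3 (adjusted p = 0.0128) and Socs5 without shNC replicate 2 (adjusted p = 0.0327), and Socs5 also passed with peaks shared by another replicate (adjusted p = 7.27e-05). The library left out was in each case the one that overlapped the other group. The shared-peak rule removed the only Tet2 KO shNC peak of Socs5. These passes are therefore no support for a change. Spike-in peaks moved with the groups, at 85 to 95 per library with shMbd6, 205 to 231 in Tet2 KO with shNC and 48 to 56 in WT with shNC, and their part in the member values was not tested.

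**Figure D4:**
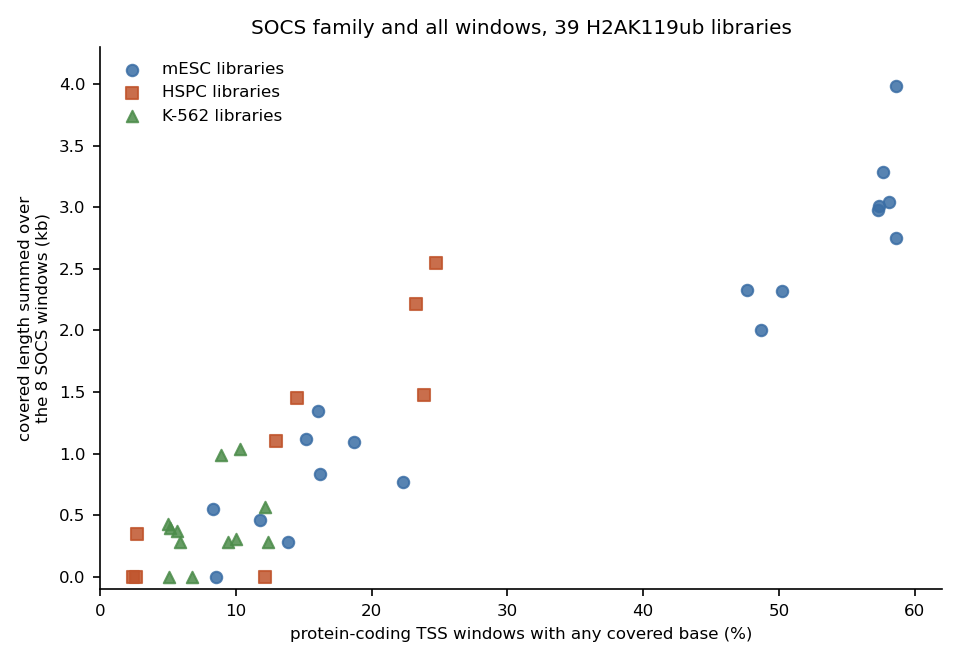
Covered length summed over the 8 SOCS windows (kb, y axis) against the share of all protein-coding TSS windows with any covered base (%, x axis), 1 point for each of 39 H2AK119ub libraries, with mESCs as circles, HSPCs as squares and K-562 as triangles. The SOCS sum is at or below 1.35 kb in the 9 Tet2 KO mESC libraries given an siRNA and 2.00 to 3.98 kb in the 9 untransfected and WT siNC mESC libraries.

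Summed over the 8 windows, the covered length of the family was 2.88 ± 0.503 kb in untransfected Tet2 KO mESCs and 2.58 ± 0.508 kb in WT mESCs (SD, n = 3 each). With siNC it was 0.909 ± 0.404 kb in Tet2 KO mESCs and 3.11 ± 0.830 kb in WT mESCs. Divided by the library's covered length in Mb, the siNC values were 0.270 ± 0.0670 kb per Mb in Tet2 KO and 0.218 ± 0.0269 kb per Mb in WT, which overlap. In HSPCs the sum was 2.08 ± 0.548 kb with shMbd6, 0.115 ± 0.199 kb in Tet2 KO with shNC and 0.852 ± 0.758 kb in WT with shNC. Per Mb covered these were 0.560 ± 0.148, 0.169 ± 0.293 and 0.409 ± 0.356 kb per Mb, with overlapping ranges. No test was made on this sum.

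In K-562 cells 5.03% to 12.3% of all windows had covered bases. The family summed to 0.768 ± 0.424 kb with siMBD6, 0.384 ± 0.155 kb with siNSUN2 and 0.238 ± 0.218 kb with siNC in TET2 KO, and to 0.254 ± 0.221 kb in WT with siNC (SD, n = 3 each). Per Mb covered these were 0.65, 0.253, 0.269 and 0.316 kb per Mb, and the siNSUN2 libraries covered more of the genome (1.15 to 1.74 Mb) than the siMBD6 libraries (0.988 to 1.41 Mb). SOCS1, SOCS2, SOCS4 and SOCS6 were at 0 in all 12 libraries. CISH, whose window also holds the start of the kinase gene MAPKAPK3 at a distance of 254 bases, had 0.279, 0.370 and 0.523 kb in TET2 KO with siMBD6, against 0 in all 3 TET2 KO siNC libraries. With siNSUN2 it had 0.261, 0.284 and 0 kb, and WT siNC libraries had 0, 0.392 and 0 kb. SOCS5 had 0, 0.399 and 0.237 kb with siMBD6 and 0.302, 0 and 0 kb with siNSUN2, against 0, 0.284 and 0.429 kb in TET2 KO with siNC and 0, 0 and 0.371 kb in WT with siNC. These SOCS5 values overlapped in every comparison. SOCS3 was covered in 1 library, at 0.266 kb with siMBD6, and SOCS7 in 2, at 0.230 kb with siMBD6 and 0.305 kb with siNSUN2.

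**Figure D5:**
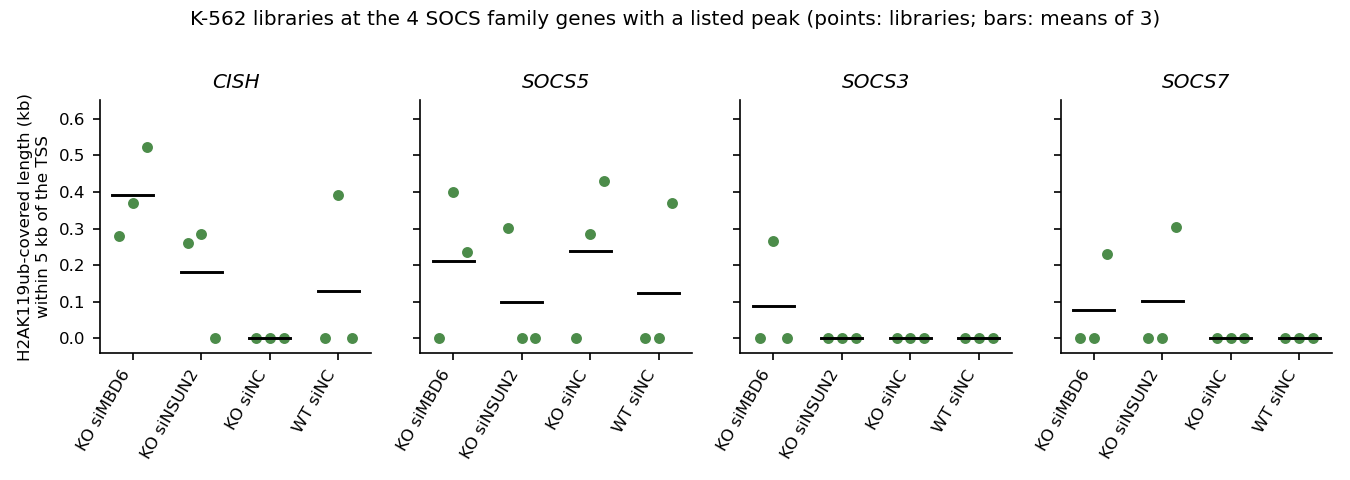
Covered length in kb within 5 kb of the TSS (y axis) of CISH, SOCS5, SOCS3 and SOCS7 in each K-562 library (points) with the mean of 3 libraries (bars), by group along the x axis. CISH is covered in the 3 siMBD6 libraries and in none of the 3 TET2 KO siNC libraries.

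Only CISH and SOCS5 could be tested in K-562 cells, and 0 of the 2 passed in any of the 3 comparisons of limma's test. For TET2 KO against WT, 0.122% of 2461 windows passed, and CISH differed by -0.131 kb (adjusted p = 0.85) and SOCS5 by 0.114 kb (adjusted p = 0.851). For siMBD6 and for siNSUN2 against siNC in TET2 KO cells, 0% of the windows passed (263 and 362 had an unadjusted p under 0.05). For siMBD6 the CISH difference was 0.391 kb, with an unadjusted p of 0.00536 and an adjusted p of 0.190. All 3 siMBD6 libraries lay above the 3 siNC libraries there, and the same 2 groups did not overlap at 8.49% of tested windows. With only peaks shared by another replicate the adjusted p of CISH was 0.00597, and with only the 2 groups in the fit it was 0.0248. In both of these fits CISH passed the filter only with its siMBD6 libraries, so they are no support for a change. Against siNC, CISH with siNSUN2 differed by 0.182 kb (adjusted p = 0.398).

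Over gene bodies most of the same peaks were counted again for the short genes Cish and Socs3, while the upstream peaks of Socs5 drop out. In untransfected mESCs Socs5 had 0.302, 0.288 and 0.243 kb within its body in Tet2 KO libraries, against 0 in all 3 WT libraries. The shared part of the peak lay 26209 to 26426 bases downstream of the outermost start, in the coding exon whose sequence is printed above. The body was covered in these 3 libraries alone and so entered the fit only through them, and its difference of 0.278 kb is given as a description. Groups did not overlap at 11.9% of gene bodies. Of the 6 member bodies, 0 passed limma's test, as against 0.16% of 13141 gene bodies (904 with an unadjusted p under 0.05). No library of the siRNA experiment had this peak.

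Socs7 carried a second body peak in exonic but non-coding sequence 31158 to 31330 bases from its start. It was present in 1 Tet2 KO library and in 3 WT libraries of the untransfected mESCs, and in 0 Tet2 KO siNC against 3 WT siNC libraries. Socs2 had one in an intron, 18313 to 18484 bases from its outermost start, in 2 Tet2 KO and 2 WT untransfected libraries and in 2 WT siNC libraries. With siNC, 3 of 4 tested bodies were lower in Tet2 KO, where 68.3% of 11208 bodies passed. All 3 passed the filter only with their WT siNC libraries, so their count is no support for a change. They were Cish, with the same peaks as above (adjusted p = 0.00929), Socs3, again covered in WT siNC alone, and Socs7, which had 0, 0 and 0.401 kb in Tet2 KO siNC against 0.263, 0.798 and 1.083 kb in WT siNC (difference -0.581 kb, adjusted p = 0.0194). Socs7 lost its call without any 1 of Tet2 KO siNC replicates 1 and 2 or WT siNC replicates 2 and 3 (adjusted p of 0.0614 to 0.0771), and with only the 2 groups in the fit (adjusted p = 0.0903). After scaling to the same covered length neither Cish nor Socs7 passed (adjusted p = 0.675 and 0.658).

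In the other comparisons 0 members passed over gene bodies by limma's test, and the share of all bodies that passed was 0.0625% for siMbd6 in mESCs, 0.00892% for siNsun2 in mESCs and 13.3% for Tet2 KO against WT in HSPCs. It was 53.5% for shMbd6 in HSPCs, where the 4 tested members had differences of 0.0740 kb at Socs1 to 0.347 kb at Socs3 and adjusted p-values of 0.114 to 0.355. In K-562 cells it was 0.202% for TET2 KO, 0.875% for siMBD6 and 1.14% for siNSUN2. Socs6, the longest member at 262 kb, had no peak near its start but 1 peak within its body in each of 5 mESC libraries, 0.210 to 0.277 kb long.

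BAP1, the deubiquitinase itself, was profiled in 2 WT mESC libraries, which listed 2013 and 2233 nuclear peaks. No BAP1 peak was listed in the window or the body of any member in either library, and 0.60% and 0.70% of all protein-coding windows had one.

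The rest of the pathway was read from 7 lists holding 83 genes (JAK kinases, STAT factors, cytokine receptor chains, other inhibitors of the pathway, partners of the SOCS box ligase, other SOCS box proteins and STAT target genes). In untransfected mESCs 0 of the 58 tested windows differed between Tet2 KO and WT. With siNC, 34 of 48 were lower in Tet2 KO and 0 higher, near the 72.1% of all windows. The 3 with the smallest adjusted p were Ifnar2, an interferon receptor chain, at 0 in Tet2 KO siNC against 0.924 ± 0.0406 kb in WT siNC (adjusted p = 2.66e-08), Sh2b3, an adaptor that limits cytokine receptor signalling, at 0 against 0.488 ± 0.0320 kb (adjusted p = 3.50e-07), and Junb, a STAT3 target, at 0 against 0.466 ± 0.0426 kb (adjusted p = 6.15e-07; limma, n = 3 each). Whether Ifnar2, Sh2b3 and Junb would have passed the filter without their WT siNC libraries was not checked, so their p-values are given as a description. Neither siMbd6 nor siNsun2 changed any of the 48 in Tet2 KO mESCs.

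In HSPCs 9 of 23 tested pathway windows were lower in Tet2 KO than in WT and 0 higher, against 22.8% of all windows called. They were led by Rbx1, the RING subunit of the SOCS box ligase, at 0 against 0.570 ± 0.0546 kb in WT (adjusted p = 0.00110), and by the SOCS box genes Asb1 at 0 against 0.651 ± 0.122 kb (adjusted p = 0.00116) and Rab40b at 0 against 0.459 ± 0.109 kb (adjusted p = 0.00212; limma, n = 3 each). With shMbd6, 17 of 23 were higher than with shNC in Tet2 KO and 0 lower, near the 72.1% of all windows called. Rab40b had 0.744 ± 0.0679 kb (adjusted p = 0.000223), Rbx1 0.642 ± 0.0612 kb (adjusted p = 0.000223) and Csf2ra, the GM-CSF receptor alpha chain, 0.478 ± 0.0542 kb (adjusted p = 0.000278) with shMbd6, against 0 in all shNC libraries for each. Beside that same 72.1%, higher by list were 6 of 6 other SOCS box genes, 4 of 5 receptor chains, 3 of 5 STAT targets, 2 of 3 other inhibitors, 1 of 2 STATs, 1 of 1 ligase partners and 0 of 1 JAKs. Genes at 0 in 1 group may have passed the filter through the other group alone, which was not checked. These counts therefore do not single out the pathway, and the p-values of the named genes are given as a description. In K-562 cells 0 of 19 tested pathway windows passed in any comparison.

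The genes most like Socs2 in covered length over the 27 mouse libraries, among 8251 windows covered in at least 10 of them and starting at least 20 kb away, were Zfp28 (Pearson r = 0.860), H2-K1 (0.851) and Cmtr2 (0.85), where the median window had 0.573. For Socs3 they were Focad (0.915), Maff (0.910) and Iba57 (0.908), with a median of 0.585. Within the family the r with Socs3 was 0.667 for Socs5 and 0.594 for Socs2, above that median. It was below it for Cish (0.545), Socs1 (0.544), Socs7 (0.460) and Socs4 (0.382). With Socs2, only Socs3 was above the median of 0.573. The others were Socs7 (0.565), Socs5 (0.497), Cish (0.492), Socs1 (0.181) and Socs4 (0.082). All of these points share their libraries and each library's total coverage, so the values describe likeness only and no p is given.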

How the data were processed

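H2AK119ub was profiled by CUT&Tag in 39 libraries and BAP1 in 2. The authors trimmed reads with Trimmomatic 0.39, aligned them with Bowtie2 2.4.1 to mm10 or hg38 together with a Drosophila spike-in genome, removed duplicates with Picard and called broad peaks per library with MACS2. The deposited lists give a position, a score, a fold enrichment (a ratio to local background) and −log10 p and q for each peak. The spike-in scaling of the study acts on signal tracks and not on these lists, and read depth is not given in them.

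Peaks on reference chromosomes were merged per library, and the covered length in kb was summed within 5 kb of each protein-coding GENCODE TSS (vM21 and v44) and over each gene body. Any gene with covered bases in 3 or more libraries of its experiment entered a fit by limma 3.58.1 in R 4.3.3, with 1 model per experiment and Benjamini-Hochberg adjustment at 0.05 over all genes tested. The difference of the Tet2 KO effects came from 1 fit over the untransfected and siNC mESC libraries. The scripts were tested on simulated data. Intervals are 95% intervals of the fit. Drawn and parsed values used Python 3.11.15.

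All 8 members are named. From the 7 pathway lists, the called windows with the 3 smallest adjusted p per direction are named. Likeness was taken over windows covered in at least 10 of 27 mouse libraries and starting at least 20 kb away. Members and lists were chosen with earlier results of these data known. Alternatives were equal covered length, stricter or shared peaks, other windows, a log2 scale (0.1 kb added), only the compared groups, the replicate block and leaving out each library. Sequences came from RefSeq GRCm38.p6.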

Additional observations from a re-analysis of the deposited data

Results flagged for a closer look

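The Tet2 KO minus WT difference of covered length differed between the siNC and the untransfected mESC experiments at Cish and at Socs5. It was -0.530 kb at Cish and -0.543 kb at Socs5 (siNC difference minus untransfected difference, adjusted p = 0.0169 and 0.00193, limma over 6 untransfected and 6 siNC libraries), and 39.4% of all windows passed the same test. Cish averaged 0.540 ± 0.0803 kb in untransfected Tet2 KO against 0.437 ± 0.102 kb in WT, and 0.101 ± 0.175 kb in Tet2 KO siNC against 0.528 ± 0.131 kb in WT siNC. Socs5 averaged 0.495 ± 0.0956 kb in untransfected Tet2 KO against 0.530 ± 0.0371 kb in WT, and was at 0 in Tet2 KO siNC against 0.578 ± 0.0393 kb in WT siNC (SD, n = 3 each). Cish and Socs5 passed in all fits that left out 1 library. After scaling to equal covered length Socs5 passed (-0.408 kb) and Cish did not (-0.220 kb, adjusted p = 0.673, limma).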

How the results depend on the processing

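Of 603 member values recomputed under alternatives, 541 kept their direction and side of the threshold. Of the counts of SOCS calls, TSS windows with shMbd6 in HSPCs (2 called) gave 0 with equal covered length, where 1186 windows were higher and 204 lower, and 1 (Socs5) with peaks of −log10 q of at least 5. With shared peaks, 1 gene body was called with shMbd6 in HSPCs (Socs2), 1 in untransfected mESCs (Socs5) and 1 window with siMBD6 in K-562 (CISH). Each of these passed the filter only with the group where it was higher. Untransfected bodies gave 1 with strict peaks (Socs7, lower in Tet2 KO) and 1 on the log2 scale (Socs5). In these fits the Socs7 body passed the filter through WT alone and the Socs5 body through Tet2 KO alone. Bodies in siNC mESCs (3 called) gave 1 (Socs3) with equal covered length and 1 (Cish) with only the compared groups. Only the compared groups also gave 1 window (CISH) for siMBD6, which again passed the filter only with its siMBD6 libraries. Leaving out single libraries gave 1 to 3 bodies in siNC mESCs, 0 to 1 windows for Tet2 KO in HSPCs (Socs1 without WT replicate 1) and 0 to 1 bodies with shMbd6. The Socs1 pass left out the WT library that overlapped Tet2 KO and is no support for a change.

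The following values changed sign. With equal covered length Socs3 was -0.0154 kb in untransfected mESCs, Socs2 0.804 and Socs7 0.217 kb in siNC mESCs, and Socs5 0.224 kb for Tet2 KO and -0.121 kb for shMbd6 in HSPCs. Strict peaks gave -0.102 kb for Socs3 and -0.0657 kb for Socs7 in untransfected mESCs, and centred peaks or a 2 kb window gave -0.0247 kb for Socs3. For siMbd6, Socs2 was 0.170 kb with shared peaks and 0.0920 kb with a 2 kb window, and SOCS5 with siMBD6 was 0.0827 kb over all transcript starts. Leaving out single libraries spanned -0.139 to 0.0313 kb at Socs1, -0.0385 to 0.0575 kb at Socs3, -0.0793 to 0.0157 kb at Socs5 and -0.0063 to 0.236 kb at Socs7 in untransfected mESCs. It spanned -0.238 to 0.170 kb at Socs2 in siNC mESCs, -0.101 to 0.115 kb at Cish and -0.292 to 0.0325 kb at Socs2 for siMbd6, -0.143 to 0.115 kb at Socs5 for Tet2 KO in HSPCs and -0.144 to 0.0803 kb at SOCS5 for siMBD6. Calls were gained for Socs7 in siNC mESCs with shared peaks (-0.620 kb, adjusted p = 0.00335, limma), where it was covered in WT siNC alone. Socs5 with shMbd6 in HSPCs gained a call with strict peaks, shared peaks or only the compared groups (adjusted p of 7.27e-05 to 0.04, limma). In each of these fits the member passed the filter only with the group where it was higher, so the calls are no support for a change.

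Replicate numbers were not taken to pair the libraries, since not every same-numbered correlation was over 0.1 (1 of 3, 7 of 18, 0 of 9 and 0 of 18 pairs of the untransfected, siRNA mESC, HSPC and K-562 libraries). In the siRNA mESCs these reached 0.239, against at most 0.063 between different numbers. With a replicate block, 4 windows were called in siNC mESCs (Socs7 added, adjusted p = 0.0363), 3 with shMbd6 in HSPCs (Socs3, adjusted p = 0.0495) and 3 for the difference of Tet2 KO effects (Socs3), and no other count of SOCS calls moved. Socs7 in siNC mESCs passed the filter only with WT siNC, and Socs3 in HSPCs only with shMbd6. Those added calls are therefore no support for a change. The causes of the shifts under these alternatives were not tested. Peak lists hold no depth, so a window at 0 may lie below what a library could list.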
